A study of Mus musculus with 60 samples.

Results

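The distal part of the mandible was compared between mouse embryos of E11.5 and of E10.5, where E counts days of embryonic development. The members are the 6 arrays of distal mandible at those ages, 3 at E11.5 and 3 at E10.5, of 60 arrays in the series, and they were chosen by title alone. The series is an expression survey of mandible and maxilla, each divided into a distal and a proximal piece, at 5 ages from E10.5 to E14.5. All embryos were of the C57Bl/6 strain, with no treatment or allele given in the labels, and all 6 arrays were titled as batch 3. Whether a group's 3 arrays hold different embryos, litters or pools is not given in the labels, so the spread between them may be in part technical. Total RNA was hybridised to Affymetrix mouse whole-genome arrays, and each value below is a log2 signal, so that a difference of 1 is a 2-fold change. One probe set stood for each of 18193 genes, the one with the highest mean over all 60 arrays, and levels of different genes are not set against each other.

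At these ages the mandible is a paired swelling of the first pharyngeal arch. Its mesenchyme comes mostly from the neural crest, it is covered by ectoderm outside and by oral epithelium and endoderm inside, and its core holds mesoderm that gives rise to muscle. Signals from the epithelium (Fgf8, Bmp4, Shh and endothelin 1) pattern the mesenchyme along the distal to proximal axis through Dlx and Hand factors. Cartilage, bone, tendon and tooth form later from this mesenchyme, and the tongue grows from the floor of the same arch.

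The tissue held to its label as mandible. Hand2, a transcription factor of the distal mandibular mesenchyme, averaged 13.03 ± 0.13 at E11.5 and 12.83 ± 0.04 at E10.5 (SD, n = 3 each), against 5.24 ± 0.13 in the distal maxilla at E11.5. Dlx5 averaged 10.08 ± 0.07 at E11.5 and 10.24 ± 0.07 at E10.5, and Pitx1 averaged 9.82 ± 0.36 and 9.89 ± 0.03, against 8.65 ± 0.01 and 7.63 ± 0.02 in the distal maxilla at E11.5. The labels name the tissue as distal bone, but Ibsp, the bone sialoprotein of mature osteoblasts, averaged 3.75 ± 0.60 at E11.5 and 3.21 ± 0.08 at E10.5. Both means lie under 4.78, a limit set at the largest of the 60 arrays' 25th percentiles, and a level below that limit is treated here as a bound. The bone genes Sp7 (7.83 ± 0.36 at E11.5 and 6.84 ± 0.13 at E10.5) and Alpl (7.19 ± 0.44 and 6.21 ± 0.15) lay above it. Of the facial mesenchyme markers, Prrx1 was high at both ages, at 12.86, 12.92 and 12.84 at E11.5 and 12.30, 12.33 and 12.31 at E10.5. Twist1 (11.61 ± 0.05 and 11.38 ± 0.04) and Msx1 (11.96 ± 0.09 and 11.61 ± 0.05) were high too. Alx4 was not, at 6.05 ± 0.14 at E11.5 and 5.89 ± 0.10 at E10.5, below the median signal of the arrays.

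Replicates 2 and 3 of E11.5 stood apart. The median log2 signal was 6.15, 6.13 and 6.31 on E11.5 replicates 1, 2 and 3, against 6.14, 6.14 and 6.11 on the E10.5 arrays, so that replicate 3 was raised as a whole. Replicate 2 was farther along the E10.5 to E11.5 difference than its partners. Of 607 genes that were at least 2-fold higher at E11.5 in the proximal mandible, replicate 2 was the highest of the 3 distal E11.5 arrays for 419, replicate 3 for 147 and replicate 1 for 41. Each SE and adjusted p rests on a spread pooled over all 20 groups, and does not measure the spread of the 6 arrays alone. Some genes scattered far more at E11.5: the SD was 1.22 for Aspn, 1.06 for Gdf10 and 1.22 for Myl1. At E10.5 it was 0.20, 0.215 and 0.12. For such genes the SE understates the scatter of the E11.5 arrays. Values without replicate 2 or replicate 3 stand beside a number of the results below. Among the genes named, the calls lost without replicate 2 were those of Foxf2, Hoxb2, Igf2, Dlk1, Ndn, Ndrg1, Sparc, Dcn, Hhex, Des and Myl7, and those lost without replicate 3 were those of Sox9, Hhip, Fos, Cdh1, Hhex, Des and Myh6. Xist, which is expressed from the inactive X chromosome in females, was not called different between the groups (difference 0.90 ± 0.77 SE, limma adjusted p = 0.43).

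In the distal mandible several early embryonic regulators and simple epithelial keratins were lower at E11.5 than at E10.5, and proteoglycans and collagens of fibrous matrix, muscle genes, basal keratins and several Wnt and Bmp pathway members were higher. In all 5391 of 18193 genes (29.6%) differed at an adjusted p under 0.05 by limma, with 3331 (18.3%) higher and 2060 (11.3%) lower at E11.5. The share of called genes that were higher was 61.8%, but it was 49.4% after repeated quantile normalization, 43.8% after each array was centred on its median and 48.3% without E11.5 replicate 3. With the array weights it was 51.2%, so the excess of higher genes depends on the scaling and on that array. At least 2-fold differences were found for 375 genes (2.06%), with 320 genes higher (1.76%) and 55 lower (0.302%); after quantile normalization there were 288 and 74, and after centring 273 and 67. The 3 E11.5 arrays lay wholly above or wholly below the 3 E10.5 arrays for 315 of the 320 and for 54 of the 55. Over all genes the share was 32.6%. The 320 and the 55 were chosen on these same arrays, so their separation follows largely from the choice and gives no further support.

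**Figure D1:**
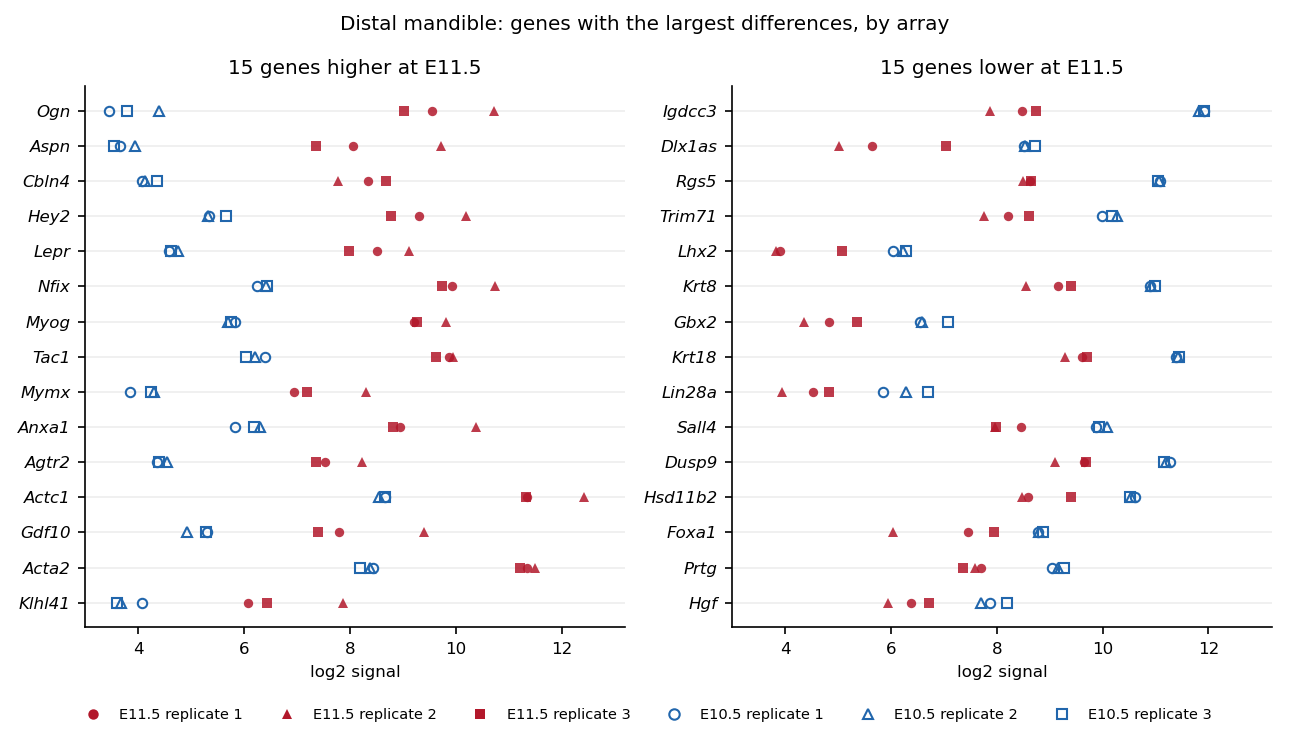
Log2 signal on each of the 6 arrays for the 15 genes with the largest called increase (left) and decrease (right) in distal mandible, E11.5 as filled and E10.5 as open symbols, with 1 symbol shape per replicate number. Ogn reads between 9.02 and 10.72 at E11.5 and between 3.45 and 4.40 at E10.5, Igdcc3 reads between 7.87 and 8.75 at E11.5 and between 11.82 and 11.91 at E10.5, and no gene drawn has arrays of the 2 ages that overlap.

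The largest decrease was in Igdcc3, a cell-surface protein of the immunoglobulin superfamily related to DCC. It read 8.47, 7.87 and 8.75 at E11.5, against 11.91, 11.82 and 11.91 at E10.5, with no overlap (difference -3.52 ± 0.18 SE, limma adjusted p = 2.54e-21). Prtg (protogenin), of the same DCC-related family, fell by 1.61 ± 0.17 (adjusted p = 8.02e-11). Both genes lie on chromosome 9.

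Genes of the Lin28 and let-7 axis fell with them. Lin28a is an RNA-binding protein of early embryonic cells that blocks the maturation of let-7 microRNAs, and let-7 in turn represses a group of growth and early-stage genes, among them Trim71 and Hmga2. Of 15 measured members 9 were called lower and 1 higher, with a median difference of -0.42 against 0.035 over all genes, and the counts were 9 and 1 also without E11.5 replicate 2, when 8.32% of all genes were called lower. Trim71, a ubiquitin ligase and RNA repressor, read 8.21, 7.77 and 8.61 at E11.5, against 9.99, 10.27 and 10.17 at E10.5 (difference -1.95 ± 0.19 SE, limma adjusted p = 1.34e-11). Lin28a itself read 4.52, 3.94 and 4.83 at E11.5, against 5.86, 6.29 and 6.70 at E10.5; because its E11.5 mean is under the bound it was at least 2.8-fold lower (adjusted p = 5.9e-08). Sall4, a zinc finger factor of pluripotent and early progenitor cells, read 8.45, 7.96 and 7.98 at E11.5, against 9.87, 10.08 and 9.94 at E10.5. In these 3 genes every E11.5 array was below every E10.5 array, and replicate 2 was the lowest E11.5 array for each.

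The remaining decreases in the axis were smaller. The de novo DNA methyltransferase gene Dnmt3b fell by 0.80 ± 0.10, the messenger RNA-binding protein genes Igf2bp1 and Igf2bp3 fell by 0.77 ± 0.08 and 0.49 ± 0.05, and Mycn, a growth-promoting transcription factor, fell by 0.60 ± 0.10. Arid3a fell by 0.42 ± 0.08, and Arid3b, a related DNA-binding factor chosen after its values were seen, fell by 1.35 ± 0.10 (adjusted p = 1.45e-14). Hmga2 (also chosen after its values were seen) fell by only 0.31 ± 0.07. Myc was the 1 member called higher (0.42 ± 0.11, adjusted p = 0.00146). The pluripotency gene Pou5f1 read 4.94, 4.87 and 5.25 at E11.5 and 5.32, 4.98 and 4.72 at E10.5, and it was not called (adjusted p = 0.957).

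Mature microRNAs were not measured on these arrays, and the let-7 sequences are shown only as the background to this gene group. The mature forms share the seed in capitals (bases 2 to 8), which pairs with target messengers. Among 11 let-7 family 5p names in the RefSeq table (GRCm38.p6), 10 share the seed of let-7a, and the exception, let-7j, ends its seed in U. The 4 printed are let-7a-5p (chr13:48538239-48538260, minus strand), let-7g-5p (chr9:106178846-106178867, plus strand), miR-98-5p (chrX:151913229-151913250, plus strand) and let-7j (chr3:140028281-140028304, plus strand).
let-7a-5p: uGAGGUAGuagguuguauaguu
let-7g-5p: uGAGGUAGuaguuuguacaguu
miR-98-5p: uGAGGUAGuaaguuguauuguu
let-7j: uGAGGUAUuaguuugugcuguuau

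Several other large decreases were in signalling genes, a hormone-inactivating enzyme gene and homeobox genes. Dusp9, a phosphatase that switches off MAP kinases, fell by 1.73 ± 0.14 (limma adjusted p = 2.61e-14). Hsd11b2, which inactivates glucocorticoids, fell by 1.73 ± 0.17 (adjusted p = 1.09e-11), and Hgf, the ligand of the Met receptor, fell by 1.57 ± 0.17 (adjusted p = 1.81e-10). Lhx2 and Gbx2, homeobox genes best known from the brain, read 3.82 to 5.07 and 4.36 to 5.36 at E11.5, against 6.03 to 6.29 and 6.55 to 7.09 at E10.5. Lhx2 was at least 2.47-fold lower, its E11.5 mean being under the bound.

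The largest increase was in a cluster of extracellular matrix genes. Ogn (osteoglycin), Omd (osteomodulin) and Aspn (asporin) encode small leucine-rich proteoglycans, which bind collagen fibrils, and stand next to each other on chromosome 13. Ogn read 9.55, 10.72 and 9.02 at E11.5, against 3.45, 4.40 and 3.79 at E10.5, at least 31.6-fold higher (adjusted p = 2.89e-16). Aspn read 8.06, 9.72 and 7.36 at E11.5, against 3.65, 3.94 and 3.55 at E10.5, at least 12.1-fold higher (adjusted p = 1.14e-14). Omd rose by 1.78 ± 0.21 (adjusted p = 1.69e-09). On either side of these 3, Ecm2 differed by 0.05 ± 0.13 and Nol8 by -0.12 ± 0.09, and neither was called (adjusted p = 0.814 and 0.395). Ecm2 averaged 3.98 at E11.5 and 3.93 at E10.5, both under the bound, so its lack of a call says little. Replicate 2 was the highest E11.5 array for all 3 genes, and without it the fitted difference of Aspn was 3.99 in place of 4.67.

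Of 31 measured collagens and matrix proteins of mesenchyme, 21 were called higher and 4 lower, with a median difference of 0.76; without E11.5 replicate 2 the counts were 20 and 5 and the median was 0.44. The chains of collagen VI, a beaded-filament collagen around cells, rose together: Col6a1 by 2.29 ± 0.23, Col6a2 by 2.11 ± 0.21 and Col6a3 by 1.97 ± 0.15. Col1a1 and Col1a2, the chains of the main fibrillar collagen, rose by 1.22 ± 0.23 and 0.97 ± 0.10. Lum (lumican, another leucine-rich proteoglycan) rose by 1.46 ± 0.24, and Fbln5, an elastic fibre protein, by 1.34 ± 0.10. The 4 members called lower were Fn1 (fibronectin), the basement membrane chains Col4a1 and Col4a2, and Fbn2, named after their values were seen. Fn1 read 10.59, 11.01 and 10.78 at E11.5, against 11.42, 11.29 and 11.30 at E10.5. The other 3 fell by 0.19 to 0.33, and the E11.5 and E10.5 arrays of Fbn2 overlapped. Vcan, Fbln1, Bgn and Fmod were not called (differences -0.14 to 0.29). Bulk RNA cannot tell more cells of a type from more RNA per cell, here and in the groups below.

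The list of lymphatic and later mesenchyme genes, called later mesenchyme below, was drawn up with earlier results of these data known. Its counts therefore give no independent support, and Ogn is counted both here and among the matrix genes. Of 17 measured genes 14 were higher and none lower, with a median of 1.23. Without E11.5 replicate 2 the counts were 13 and 0, with a median of 0.80, and without replicate 3 they were 12 and 0. The secreted synaptic organiser Cbln4 read 8.33, 7.77 and 8.67 at E11.5, against 4.08, 4.12 and 4.36 at E10.5, at least 11.2-fold higher. Agtr2, the type 2 receptor of angiotensin II, was at least 7.59-fold higher, and the opioid peptide precursor Penk rose by 2.59 ± 0.28. The mesenchymal T-box genes Tbx18 and Tbx15 rose by 2.28 ± 0.24 and 1.91 ± 0.24, and the tendon regulator Mkx by 1.92 ± 0.15. Ebf1, Pi16 and Dpt were not called (differences 0.00 to 0.19).

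Nfix was 13.6-fold higher, at 9.93, 10.74 and 9.74 at E11.5, against 6.25, 6.41 and 6.44 at E10.5 (difference 3.77 ± 0.31 SE, limma adjusted p = 5.82e-14). It is one of 4 nuclear factor I genes, which promote differentiation over the progenitor state in several tissues. Of the others, chosen after their values were seen, Nfia rose by 2.10 ± 0.16 and Nfib by 1.71 ± 0.16. Nfic read 9.62, 9.91 and 9.62 at E11.5, against 9.74, 9.50 and 9.46 at E10.5, and was not called (adjusted p = 0.206). Further genes among the 15 largest increases belong to no list. Lepr, the leptin receptor, read 8.51, 9.12 and 7.97 at E11.5, against 4.58, 4.75 and 4.61 at E10.5, and was higher by at least 3.76 on the log2 scale. Tac1, the precursor of substance P, read 9.86, 9.95 and 9.62 at E11.5, against 6.40, 6.21 and 6.04 at E10.5 (12.1-fold), and Anxa1, an annexin, was 9.64-fold higher. Klhl41, a Kelch protein of the sarcomere, was at least 4.02-fold higher.

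Early bone genes rose modestly while cartilage genes were mixed. Of 13 measured osteogenesis genes 7 were called higher and none lower (6 and none without E11.5 replicate 2, where Sparc was lost); Runx2, Spp1 and Bglap were not analysed here, because no probe set had them as its only gene. Sp7, the osteoblast transcription factor, read 7.74, 8.23 and 7.52 at E11.5, against 6.86, 6.96 and 6.70 at E10.5 (difference 0.99 ± 0.16 SE, limma adjusted p = 2.45e-06). Alpl, the bone alkaline phosphatase, read 6.97, 7.70 and 6.91 at E11.5, against 6.35, 6.05 and 6.22 at E10.5 (0.99 ± 0.21, adjusted p = 0.000161). Postn (periostin) rose by 1.31 ± 0.14 and the parathyroid hormone receptor gene Pth1r by 0.38 ± 0.09. Ibsp was not called (adjusted p = 0.164), with both means under the bound. Dlx5, with both means well above the bound, was not called either (difference -0.16 ± 0.17).

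Of 20 chondrogenesis genes 4 were called lower and 2 higher, with a median of -0.001. Over all genes 11.3% were lower and 18.3% higher, so these counts alone do not set the list apart. Col2a1, the main collagen of cartilage, read 8.92, 9.49 and 9.41 at E11.5, against 10.47, 10.47 and 10.40 at E10.5 (difference -1.17 ± 0.22 SE, adjusted p = 3.16e-05). Col9a1 fell by 0.89 ± 0.15 and the chondrogenic factor Sox5 by 0.77 ± 0.15, whereas its close relative Sox6 rose by 1.11 ± 0.12. Sox9, the regulator above both, read 8.12, 8.86 and 8.41 at E11.5, against 8.82, 8.70 and 8.96 at E10.5. Its arrays overlapped and its adjusted p was 0.0491, with replicate 2 the highest of the E11.5 arrays. Cnmd (chondromodulin) was at least 2.45-fold higher (fitted difference 1.505, and 0.88 without replicate 2), and Col11a1, Wwp2, Hapln1 and Col9a3 were not called.

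Most skeletal muscle genes were higher at E11.5. Of 30 measured genes 22 were called higher and 1 lower, with a median of 1.28, or 1.01 when every value is raised to the bound of 4.78. Myog (myogenin), the factor that commits myoblasts to differentiate, read 9.21, 9.82 and 9.26 at E11.5, against 5.82, 5.69 and 5.76 at E10.5 (difference 3.67 ± 0.16 SE, 12.7-fold, limma adjusted p = 3.91e-23). Mymx (myomixer), needed for myoblast fusion, was at least 6.5-fold higher. Its partner Mymk (myomaker) read 6.80, 7.36 and 6.28 at E11.5, against 6.68, 6.52 and 6.33 at E10.5, and was not called (adjusted p = 0.373). Myf5, the early determination factor, read 8.74, 8.58 and 9.49 at E11.5, against 8.18, 8.41 and 8.41 at E10.5, with an adjusted p of 0.0978. Des (desmin) was the 1 member called lower, by 0.38 ± 0.13, and it was named after its values were seen.

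Contractile genes rose with Myog, and here E11.5 replicate 2 stood apart most. Myl1, a fast myosin light chain, read 8.34, 10.46 and 8.35 at E11.5, against 6.08, 6.33 and 6.22 at E10.5 (difference 2.84 ± 0.33 SE, adjusted p = 1.54e-09). The embryonic myosin heavy chain gene Myh3 read 7.06, 9.38 and 7.22 at E11.5, against 5.19, 4.91 and 4.64 at E10.5. The troponin C genes Tnnc1 and Tnnc2 rose by 2.75 ± 0.30 and 2.67 ± 0.33. Averaged over the 30 genes the level was 7.25, 8.28 and 7.45 on the E11.5 arrays, against 6.14, 6.16 and 6.20 on the E10.5 arrays. Replicate 2 was the highest E11.5 array for 18 of the 22 genes called higher, replicate 3 for 4 and replicate 1 for none. Without replicate 2 the list had 19 higher and none lower, with a median of 0.80, while Myog differed by 3.48, Myl1 by 2.14, Myh3 by 2.23, Tnnc1 by 2.11 and Tnnc2 by 2.01. What replicate 2 contributes beyond these values was not tested.

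**Figure D2:**
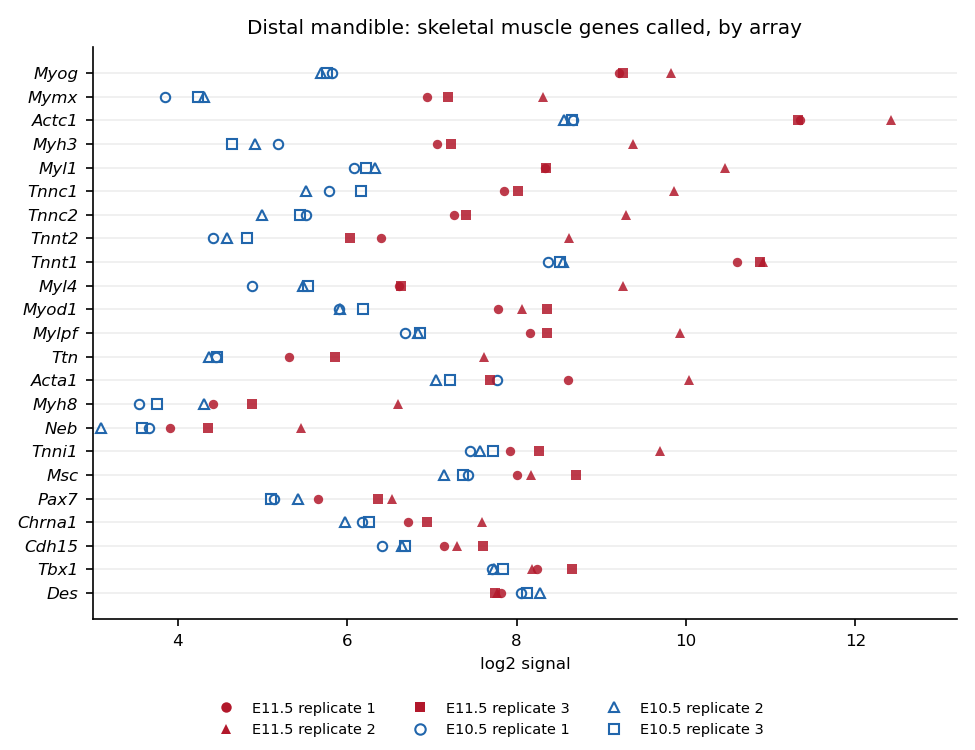
Log2 signal on each of the 6 arrays for the skeletal muscle genes called in distal mandible, ordered by difference, E11.5 as filled and E10.5 as open symbols with 1 shape per replicate number. E11.5 replicate 2 (filled triangles) is the highest E11.5 array for 18 of the 22 genes called higher, for example Myl1 at 10.46 beside 8.34 and 8.35, and Des at the foot is the 1 gene called lower.

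A pair of actin genes stood among the 15 largest increases. Actc1, the cardiac alpha-actin that embryonic skeletal muscle also uses, read 11.34, 12.42 and 11.33 at E11.5, against 8.67, 8.56 and 8.65 at E10.5 (8.4-fold, adjusted p = 1.46e-14). Acta2, the alpha-actin of smooth muscle that early skeletal muscle also expresses, read 11.34, 11.502 and 11.22 at E11.5, against 8.43, 8.39 and 8.19 at E10.5 (8.11-fold, adjusted p = 1.01e-18). Replicate 2 was the highest E11.5 array for both.

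The promoters of Myog, Actc1 and Acta2 are shown because these 3 genes rose together and are textbook targets of myogenic factors, which bind E-boxes, or of serum response factor, which binds CArG boxes. Each is the 200 bases before the annotated start in RefSeq (GRCm38.p6), written 5′ to 3′ on the gene's strand. Capitals mark every E-box (CANNTG) and every exact CArG box (CCWWWWWWGG, where W is A or T). Both patterns are the same on both strands, and no marked motif overlaps another. Near matches to the CArG pattern, such as ccctatatgg in the Actc1 and Acta2 windows, are neither marked nor counted. The windows are Myog at chr1:134289804-134290003 (plus strand), Actc1 at chr2:114052876-114053075 (minus strand) and Acta2 at chr19:34255374-34255573 (minus strand).
Myog: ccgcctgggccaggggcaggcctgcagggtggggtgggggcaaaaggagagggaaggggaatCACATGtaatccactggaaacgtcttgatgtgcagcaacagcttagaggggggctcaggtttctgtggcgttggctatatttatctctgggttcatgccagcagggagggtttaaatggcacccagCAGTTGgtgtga
Actc1: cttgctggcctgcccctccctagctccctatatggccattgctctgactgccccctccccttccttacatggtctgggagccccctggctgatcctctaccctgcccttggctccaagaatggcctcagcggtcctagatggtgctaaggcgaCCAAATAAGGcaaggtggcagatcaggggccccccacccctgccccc
Acta2: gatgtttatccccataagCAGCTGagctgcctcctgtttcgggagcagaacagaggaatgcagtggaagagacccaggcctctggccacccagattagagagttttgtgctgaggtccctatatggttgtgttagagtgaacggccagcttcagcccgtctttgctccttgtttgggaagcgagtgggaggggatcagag

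The Myog window holds 2 E-boxes, which begin 138 and 12 bases before the start, and no exact CArG box. The Actc1 window holds 1 exact CArG box, 47 bases before the start, and no E-box. The Acta2 window holds 1 E-box, 182 bases before the start, and only near matches to the CArG pattern. Over 32851 windows of 200 bases in the table, 58.2% hold an E-box and 1.18% hold an exact CArG box.

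Among epithelial genes, keratins of simple epithelium fell while keratins of basal stratified epithelium rose. Krt8 and its partner Krt18, neighbours on chromosome 15, form the filaments of simple epithelium. Krt8 read 9.16, 8.56 and 9.40 at E11.5, against 10.89, 10.91 and 10.99 at E10.5 (difference -1.89 ± 0.13 SE, limma adjusted p = 1.53e-16). Krt18 read 9.61, 9.29 and 9.71 at E11.5, against 11.39, 11.42 and 11.44 at E10.5 (-1.88 ± 0.13, adjusted p = 1.3e-16). Krt5 and its partner Krt14, of the basal layer, went the other way. Krt5 read 9.0, 9.74 and 8.71 at E11.5, against 7.53, 7.19 and 7.26 at E10.5, and Krt14 read 10.27, 11.18 and 10.06 at E11.5, against 8.29, 8.44 and 8.27 at E10.5. No array of one age overlapped the other in these 4 genes. Krt15 rose by 1.53 ± 0.14.

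Over the whole list of 22 surface epithelium genes 8 were called higher and 6 lower, with a median of -0.03, and without E11.5 replicate 2 the counts were 5 and 6. The desmosomal cadherin Dsc3 was 7.18-fold higher by its brightest probe set, although another of its probe sets was lower at E11.5 (-0.49, adjusted p = 0.00234), so its direction is uncertain. The tight junction claudins Cldn7 and Cldn6 fell by 0.97 ± 0.12 and 0.96 ± 0.14. Pan-epithelial genes moved little: Epcam differed by -0.29 ± 0.08 and Cdh1 by -0.35 ± 0.12, and Trp63 (0.19 ± 0.10, adjusted p = 0.155), Dsp, Dsg2 and Esrp1 were not called. Averaged over the list, the level was 8.81, 9.16 and 8.91 at E11.5, against 8.73, 8.81 and 8.79 at E10.5.

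Endodermal markers were 4 lower and 2 higher of 9, and 1 was higher without E11.5 replicate 2 or without replicate 3. Foxa1, a pioneer factor of endoderm, read 7.46, 6.05 and 7.95 at E11.5, against 8.78, 8.79 and 8.87 at E10.5 (difference -1.66 ± 0.26 SE, adjusted p = 1.69e-06), and Foxa2 fell by 1.39 ± 0.24. Sox2 fell by 0.76 ± 0.16 and Cldn4 by 0.62 ± 0.10. Pax1, a pharyngeal pouch gene that is also expressed in mesenchyme, rose by 2.43 ± 0.25 (adjusted p = 3.84e-11), and Hhex rose by 0.32 ± 0.12, a call lost without replicate 2. The thyroid genes Nkx2-1 and Pax8 and the liver gene Ttr were not called.

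Of 34 measured Wnt pathway genes 22 were called higher and 1 lower, with a median of 0.38 (19 and 1 without E11.5 replicate 2, 18 and 3 after centring, and 2 lower without replicate 3). The strongest were secreted modulators. Wif1, which binds Wnt ligands and blocks them, read 8.38, 9.60 and 8.58 at E11.5, against 5.97, 6.13 and 6.21 at E10.5 (6.73-fold, limma adjusted p = 1.85e-13). The R-spondins Rspo1 and Rspo3, which raise the level of Wnt receptors, rose by 2.37 ± 0.13 and 2.31 ± 0.15. Wnt5a, the ligand of planar polarity signalling, read 12.14, 12.51 and 11.92 at E11.5, against 10.59, 10.56 and 10.66 at E10.5 (difference 1.59 ± 0.15 SE). The R-spondin receptor Lgr5 rose by 1.31 ± 0.09, the antagonists Dkk3 and Sostdc1 by 1.32 ± 0.13 and 1.13 ± 0.11, and the feedback inhibitor Nkd1 by 1.05 ± 0.12. Sfrp1, the 1 member called lower, was named after its values were seen and fell by 0.39 ± 0.08. Frzb, Fzd7, Dkk1 and Znrf3 were not called.

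Of 30 Bmp and Tgf-beta members 16 were higher and 1 lower, with a median of 0.26, after centring 14 and 4, and without E11.5 replicate 3 2 were lower. Among ligands, Gdf10 was 8.17-fold higher, at 7.79, 9.39 and 7.41 at E11.5, against 5.31, 4.92 and 5.27 at E10.5, and its difference of 3.03 became 2.43 without replicate 2. Inhba, the activin A subunit, rose by 1.95 ± 0.18, Bmp2 by 1.30 ± 0.15, Bmp4 by 1.07 ± 0.17 and Tgfb3 by 0.94 ± 0.10. Fst (follistatin), the antagonist of activin, rose by 1.27 ± 0.26, and the receptor gene Tgfbr2 by 0.67 ± 0.08. The receptor gene Bmpr1b was the 1 member called lower (-0.998 ± 0.12, adjusted p = 1.47e-09). The Bmp response genes Id1, Id2 and Id3 differed by -0.11, 0.01 and -0.00 and were not called, nor was Bambi.

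Hedgehog genes were split, with 4 of 15 higher and 6 lower (4 and 4 without E11.5 replicate 2). Shh, the ligand made by the oral epithelium, read 9.66, 9.66 and 9.53 at E11.5, against 10.51, 10.46 and 10.45 at E10.5 (difference -0.86 ± 0.23 SE, adjusted p = 0.00232). The pathway's feedback targets Ptch1 and Hhip fell by 0.40 ± 0.08 and 0.62 ± 0.16, and Foxf1, a target in mesenchyme, fell by 1.02 ± 0.13. The co-receptor genes Cdon, Boc and Gas1 rose by 0.83 ± 0.08, 0.80 ± 0.10 and 0.45 ± 0.05. Foxf2 fell by 0.43 ± 0.16, a call lost without replicate 2 (adjusted p = 0.157). Smo, Gli3, Sufu and Dhh were not called.

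In the Fgf pathway 7 of 23 were higher and 3 lower, beside 18.3% and 11.3% of all genes. Fgf8, the arch epithelial ligand, read 5.55, 5.67 and 6.40 at E11.5, against 6.87, 7.25 and 7.16 at E10.5 (difference -1.22 ± 0.19 SE, adjusted p = 1.11e-06), and Fgf18 read 7.84, 8.31 and 7.87 at E11.5, against 6.00, 6.22 and 6.04 at E10.5 (1.92 ± 0.16). The receptor gene Fgfr1 rose by 0.47 ± 0.08, and Fgfr2 and the target gene Etv5 were not called. Retinoic acid genes were 6 higher and none lower of 15 measured, or 6 and 2 after centring or quantile normalization. Both the degrading enzyme Cyp26b1 (2.24 ± 0.19, adjusted p = 2.56e-13) and the synthesising enzymes Aldh1a2 (0.99 ± 0.25) and Aldh1a3 (at least 1.74-fold) rose. In the Notch list 5 of 16 were higher and 2 lower. Hey2, a bHLH repressor that Notch signalling can induce, read 9.31, 10.18 and 8.78 at E11.5, against 5.34, 5.31 and 5.65 at E10.5 (15.9-fold, adjusted p = 2.43e-16), and Hey1 rose by 1.05 ± 0.11. Hes1, the more general Notch target, was not called (0.09 ± 0.06), nor were Notch1, Notch2 and Jag1.

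Of 19 Igf pathway and imprinted growth genes 4 were called higher and 7 lower. The ligand gene Igf1 read 11.36, 11.80 and 11.35 at E11.5, against 10.10, 10.11 and 10.21 at E10.5 (difference 1.36 ± 0.11 SE, limma adjusted p = 5.34e-14). The Igf binding protein genes Igfbp7 and Igfbp3 rose by 1.37 ± 0.19 and 1.02 ± 0.14. The imprinted genes Dlk1, Mest, Peg3 and Ndn fell by 0.20 to 0.32, and the calls for Dlk1 and Ndn were lost without replicate 2 (adjusted p = 0.151 and 0.132). The ligand gene Igf2, named after its values were seen, read 13.87, 13.86 and 13.88 at E11.5, against 14.08, 13.95 and 13.96 at E10.5.

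Changes in cell cycle genes were small. Of 25 cell cycle genes 11 were lower and 2 higher, with a median of -0.10; the count of lower genes was 8 without E11.5 replicate 2 and 16 without replicate 3 or after centring. The mitotic kinase gene Plk1 read 10.52, 10.498 and 10.67 at E11.5, against 11.14, 11.05 and 11.05 at E10.5 (difference -0.52 ± 0.05 SE, adjusted p = 2.12e-11), and the replication licensing gene Mcm3 fell by 0.38 ± 0.06. Mki67 fell by 0.26 ± 0.07. The members called higher were both cell cycle inhibitors: Cdkn1c (p57) at 13.43, 13.39 and 13.52 at E11.5, against 12.76, 12.79 and 12.76 at E10.5, and Cdkn1b (p27), which rose by 0.48 ± 0.09. Pcna, Mcm4, Ccnd1 and Ccnd2 were not called.

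Glycolysis and hypoxia genes were 10 lower and 1 higher of 18. Pfkl, of the phosphofructokinase step, fell by 0.67 ± 0.09, Pkm by 0.50 ± 0.07, the glucose transporter gene Slc2a1 by 0.49 ± 0.10 and Ldha by 0.32 ± 0.04. Ndrg1 was the 1 member called higher, and that call was lost without replicate 2. Immediate early and heat shock genes, which respond to handling, were 7 higher and 4 lower of 16. Without replicate 2 they were 3 and 4. Egr1 rose by 0.77 ± 0.13, whereas Jun fell by 0.46 ± 0.06 and Fos by 0.41 ± 0.12, so these genes did not move one way.

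Of 22 patterning genes of the distal arch 5 were called higher and 5 lower, beside 18.3% and 11.3% of all genes. Hand2, Msx1, Msx2 and Tbx3 were not called (differences -0.37 to 0.34), nor were Dlx5 and Dlx6 (-0.43 ± 0.19, adjusted p = 0.0956). Pax9, a paired-box gene of tooth and jaw mesenchyme, read 7.95, 8.06 and 7.78 at E11.5, against 5.34, 5.65 and 5.63 at E10.5 (difference 2.39 ± 0.12 SE, limma adjusted p = 4.29e-21). Alx1 rose by 1.47 ± 0.26 and Mef2c, which acts downstream of endothelin, by 0.99 ± 0.15. Dlx4 and Dlx3 fell by 1.005 ± 0.13 and 0.60 ± 0.12, and Isl1 fell by 0.80 ± 0.15.

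Of 15 genes linked to the proximal arch 6 were called higher and 6 lower. Nr2f1 (COUP-TFI) read 10.80, 9.75 and 11.30 at E11.5, against 12.11, 12.03 and 12.06 at E10.5 (difference -1.45 ± 0.19 SE, adjusted p = 1.48e-08). Its relative Nr2f2 fell by 0.75 ± 0.10, Barx1, a homeobox gene of the molar field, by 1.10 ± 0.13, and the linked genes Dlx1 and Dlx2 by 0.79 ± 0.13 and 0.94 ± 0.13. Dlx1as, the antisense transcript of the Dlx1 locus, read 5.65, 5.03 and 7.04 at E11.5, against 8.51, 8.54 and 8.72 at E10.5 (-2.68 ± 0.36, adjusted p = 3.35e-08). For Nr2f1, Nr2f2, Dlx1 and Dlx1as replicate 2 was the lowest and replicate 3 the highest of the E11.5 arrays, and all E11.5 arrays lay below all E10.5 arrays. Meox2, Pou3f3 and Irx5 rose by 1.55 ± 0.16, 1.52 ± 0.14 and 1.03 ± 0.10. Jag1, Shox2 and Emx2 were not called. Of 10 Hox genes, which as a group mark the arches behind the first, only Hoxb2 was called (-0.57 ± 0.21), and that call was lost without replicate 2 (adjusted p = 0.245).

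Among neural crest mesenchyme genes 8 of 18 were higher and 3 lower. Zeb2 rose by 1.95 ± 0.21, Tfap2b by 1.07 ± 0.11 and Snai2 by 0.64 ± 0.07. The forkhead genes Foxc1 and Foxc2 fell by 1.51 ± 0.13 and 0.81 ± 0.15. Tooth initiation genes were 11 higher and 5 lower of 22. They include Pax9, Inhba, Sostdc1, Bmp4 and Tfap2b among those higher and Fgf8, Barx1 and Dlx2 among those lower, all with the values given above, while Wnt10a and Eda were not called.

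Of 12 pericyte and smooth muscle genes 4 were called higher and 3 lower. Rgs5, a regulator of G-protein signalling that marks pericytes in the adult, read 8.62, 8.50 and 8.65 at E11.5, against 11.09, 11.06 and 11.04 at E10.5 (difference -2.47 ± 0.16 SE, 5.55-fold, limma adjusted p = 3.6e-17). The pericyte channel gene Kcnj8 rose by 0.97 ± 0.21 and Tagln, an actin-binding protein of smooth muscle, by 0.84 ± 0.15. Mcam averaged 7.49 ± 0.10 at E11.5 and 7.29 ± 0.06 at E10.5, and Notch3 averaged 9.77 ± 0.07 and 10.04 ± 0.08. Des was called lower, as given above. The pericyte markers Pdgfrb, Abcc9 and Cspg4 were not called (differences -0.06 to -0.01), and neither were the smooth muscle genes Cnn1 and Myh11. Endothelial genes were 4 higher and 3 lower of 20, near the shares over all genes (18.3% higher and 11.3% lower). Cdh5 (VE-cadherin) differed by -0.01 ± 0.06 and Emcn by -0.05 ± 0.07, while Prox1, the lymphatic regulator, rose by 0.88 ± 0.19.

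Blood genes were higher at E11.5 in part. Of 11 erythroid genes 5 were higher and none lower, but without E11.5 replicate 3 only 3 were higher, and without replicate 2 there were 6. The embryonic globins Hbb-y and Hba-x rose by 0.21 ± 0.05 and 0.32 ± 0.10, whereas Hbb-bh1 did not pass the test (0.01 ± 0.10). Hbb-y read 14.72 to 14.79 at E11.5 and 14.55 to 14.56 at E10.5, close to the highest value of the table (14.81). The platelet chemokine genes Ppbp and Pf4 rose by 1.99 ± 0.23 and 1.46 ± 0.14, the granulocyte genes S100a8 and S100a9 by 1.34 ± 0.28 and 0.97 ± 0.25, and the mast cell gene Cpa3 by 0.87 ± 0.20, while Cma1, Mcpt4 and Tpsb2 were not called. Macrophage genes were 1 higher and 2 lower of 17 (1 and 1 without replicate 2), beside 18.3% and 11.3% of all genes.

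Neuronal and glial genes were mostly not called, which also holds over all genes (18.3% higher and 11.3% lower). Of 18 neuronal genes 4 were higher and 2 lower. Stmn2 read 7.20, 9.32 and 6.62 at E11.5, against 5.66, 5.75 and 5.89 at E10.5, with replicate 2 far above its partners (difference 1.94, and 1.14 without it), and Gap43, a growth cone protein, fell by 1.28 ± 0.08. Of 9 glial genes Cdh6 and Erbb3 were higher, and Sox10, which marks crest and glia, was not called (0.16 ± 0.12). Heart genes were 2 higher and 1 lower of 12, against 4 and 0 without E11.5 replicate 2 and 1 higher without replicate 3, with Myl2, Myh6, Nppa and Gata4 under or near the bound at both ages. Of 7 pigment cell genes only Kit was called, and it fell by 0.57 ± 0.10.

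**Figure D3:**
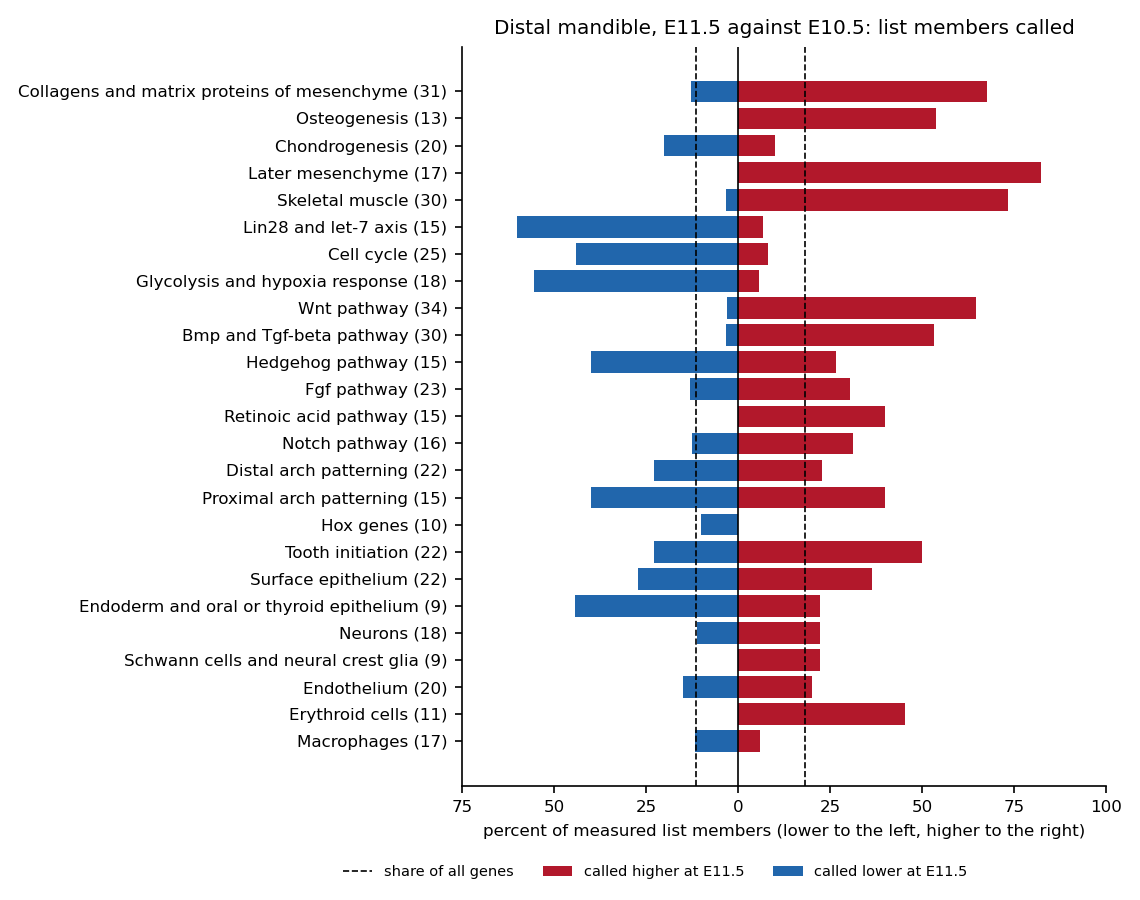
Percent of the measured members of 25 gene lists that were called higher (bars to the right) or lower (bars to the left) in distal mandible at E11.5 against E10.5, with the number measured in brackets and dashed lines at the share over all genes (18.3% higher and 11.3% lower). Later mesenchyme (14 of 17), skeletal muscle (22 of 30) and matrix (21 of 31) extend farthest to the right, and the Lin28 and let-7 axis (9 of 15) farthest to the left.

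To see which changes differ along the mandible, the distal change was set against the change over the same day in the proximal mandible, whose 3 arrays per age were also titled batch 3. There 7263 genes (39.9%) were called, and 2154 genes (11.8%) had a distal change that differed from the proximal change, 848 (4.66%) upward and 1306 (7.18%) downward. Of the 320 genes at least 2-fold higher distally, 298 were called higher and 2 lower proximally, where 25.5% of all genes were called higher. For 97 of the 320 the distal change differed from the proximal one. Nfix (4.31), Hey2 (3.36) and Igdcc3 (-3.68) had proximal differences that did not pass the test against the distal ones (adjusted p = 0.337 to 0.759). Ogn was higher proximally by at least 5.33 on the log2 scale, its E10.5 mean being under the bound there too. Of the 55 genes at least 2-fold lower distally, 40 were called lower and 2 higher proximally, where 14.4% of all genes were called lower. For 29 of the 55 the distal change differed from the proximal one.

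**Figure D4:**
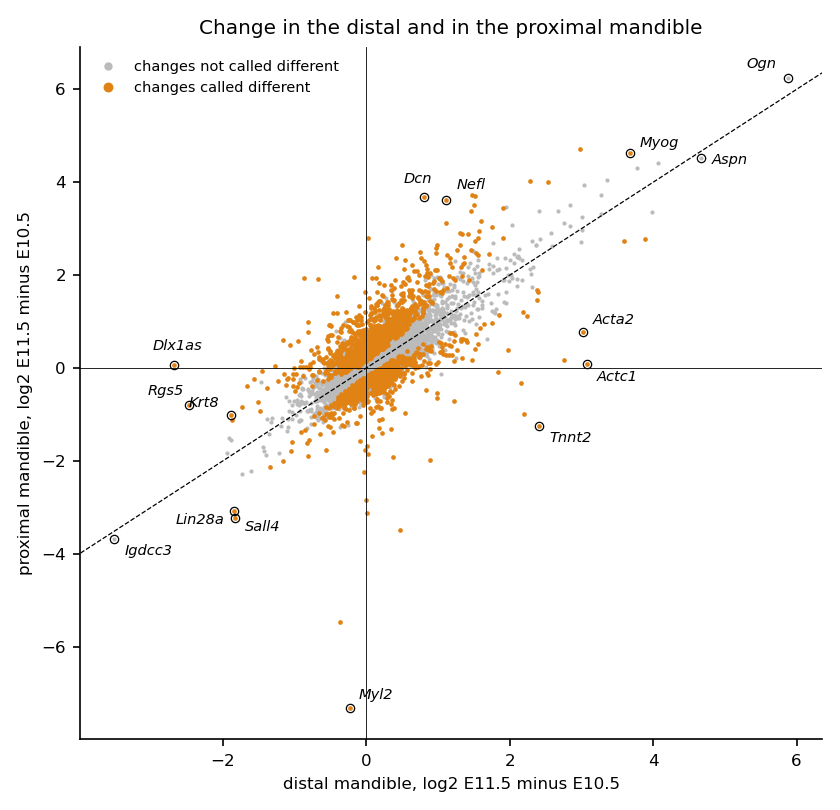
Log2 difference between E11.5 and E10.5 in the distal mandible (x axis) and in the proximal mandible (y axis) for each of 18193 genes, with the 2154 genes whose changes differed in orange and the dashed line at equal change. Ogn, Aspn and Igdcc3 lie near the line, Actc1 and Acta2 lie to its right, and Myl2 lies far below it with a fitted proximal change of -7.32.

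The 3 genes with the largest upward difference, Myl2, Myl7 and Myh6, are heart muscle genes that fell proximally. Myl2, the ventricular myosin light chain, averaged 4.42 ± 0.06 at E11.5 and 11.73 ± 0.07 at E10.5 in the proximal mandible, a fall of at least 6.95 on the log2 scale, while its distal level was under the bound at both ages. Myl7, an atrial myosin light chain gene, fell by 5.48 proximally, with a distal difference of -0.37 that was not called without E11.5 replicate 2 (adjusted p = 0.143). Myh6, an atrial myosin heavy chain gene, was lower by at least 3.30 on the log2 scale proximally and under the bound at both ages distally. The next 2, Tnnt2 and Myl4, are used by heart and early skeletal muscle, and they fell by 1.24 and 0.99 proximally but were higher at E11.5 distally (Tnnt2 at least 4.68-fold, Myl4 by 2.20). Of 12 heart genes 8 had a distal change above the proximal one. Actc1 belongs with these in part: proximally it averaged 12.25 ± 0.94 at E11.5 and 12.17 ± 0.09 at E10.5 (difference 0.08, adjusted p = 0.833), so that the distal E11.5 arrays came near a level the proximal piece had at both ages. Acta2 likewise averaged 11.52 ± 0.62 at E11.5 and 10.75 ± 0.07 at E10.5 proximally. The proximal E10.5 arrays are those with high Myl2, and the part of heart tissue in the Actc1 and Acta2 values was not tested.

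Among the lists, 13 of 17 macrophage genes, 6 of 9 glial genes, 5 of 18 neuronal genes and 7 of 31 matrix genes had a distal change below the proximal one, against 7.18% of all genes. So had 8 of 15 proximal arch genes, 10 of 30 Bmp and Tgf-beta genes and 6 of 17 later mesenchyme genes, with 1, 1 and 0 above it. Neural crest mesenchyme had 5 of 18 below and 5 above, and endothelium 5 of 20 below and 1 above. Dcn (decorin) rose by 0.81 ± 0.24 distally, and only by 0.35 (adjusted p = 0.26) without E11.5 replicate 2, against 3.68 proximally (difference of changes -2.87 ± 0.33 SE, adjusted p = 1.22e-08). The neurofilament genes Nefl and Nefm rose by 3.62 and 2.79 proximally, and differed by 1.11 and 0.02 distally. All 17 macrophage genes were called higher proximally, where 25.5% of all genes were, and C1qb, a complement gene named after its values were seen, differed by -0.19 distally and 0.996 proximally. Of the 9 glial genes 8 were higher proximally. Dlx1as averaged 10.24 ± 1.04 at E11.5 and 10.17 ± 0.01 at E10.5 proximally, so that its fall was called in the distal piece alone (difference of changes -2.75 ± 0.50, adjusted p = 0.000112). Rgs5 (-1.67 ± 0.23), Hgf (-1.34 ± 0.24) and Foxa1 (-1.28 ± 0.38) also fell more distally, as did Krt8 and Krt18, by 0.88 ± 0.18 and 0.76 ± 0.18 more. By contrast Sall4 fell less distally than proximally, where its difference was -3.24. Lin28a was under the bound at E11.5 in both pieces, and was lower by at least 2.42 on the log2 scale proximally.

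The later ages of the distal mandible are given only as a description, since E12.5 was titled batch 2 and E13.5 and E14.5 batch 1, and batch and age cannot be told apart there. Of the 320 genes at least 2-fold higher at E11.5, the E12.5 mean was above the E10.5 mean for 313, the E13.5 mean for 315 and the E14.5 mean for 312. Of the 55 lower genes, 53, 53 and 50 were below their E10.5 mean at those ages. Both sets were chosen by their difference from that same E10.5 mean, which favours such counts. The share over all genes was not counted. Ogn averaged 3.88 ± 0.48, 9.76 ± 0.87, 11.15 ± 0.03, 11.98 ± 0.10 and 12.13 ± 0.08 from E10.5 to E14.5. Igdcc3 averaged 11.88 ± 0.05, 8.36 ± 0.45, 7.23 ± 0.14, 6.60 ± 0.11 and 6.38 ± 0.11. Ibsp, low on both early ages, averaged 8.82 ± 0.11, 12.89 ± 0.12 and 13.01 ± 0.31 from E12.5 to E14.5. Muscle genes took a different course. Myog averaged 5.76 ± 0.07, 9.43 ± 0.34, 7.29 ± 0.07, 10.02 ± 0.42 and 10.99 ± 0.01 from E10.5 to E14.5, and Actc1 averaged 8.63 ± 0.06, 11.70 ± 0.62, 10.02 ± 0.06, 12.84 ± 0.40 and 13.70 ± 0.01, both with a dip at E12.5.

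**Figure D5:**
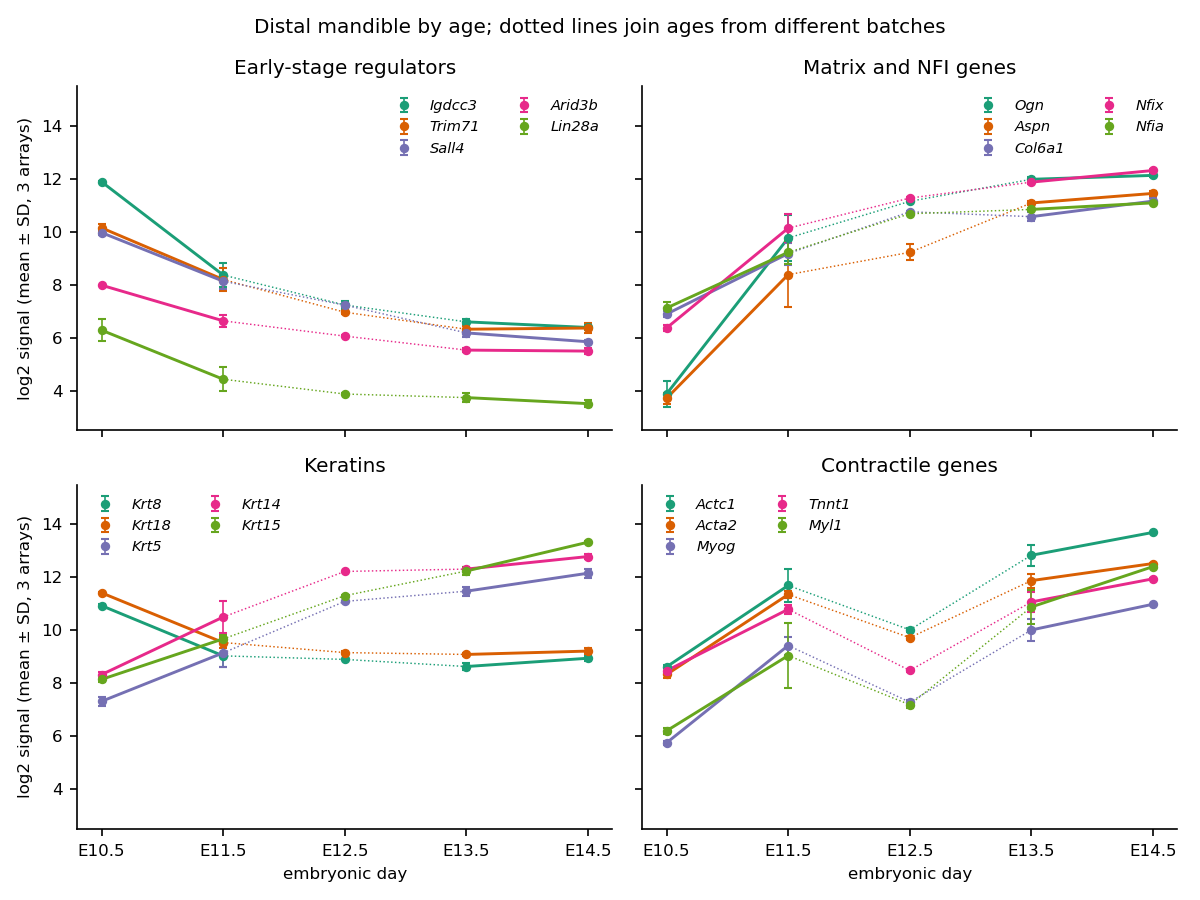
Log2 signal (mean ± SD over 3 arrays) in distal mandible from E10.5 to E14.5 for 4 groups of 5 genes, with solid lines within a batch and dotted lines between batches. Igdcc3 goes down over the ages to 6.38 and Ogn goes up to 12.13, Krt5, Krt14 and Krt15 lie above their E10.5 levels at every later age, and the contractile genes dip at E12.5, where Myog is at 7.29.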

How the data were processed

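The deposited series table holds log2 values that the authors made with RMA, per the submitters' processing notes, which give no version. RMA pulls small differences together, and the log2 signals of dim probes are bounds. Of 45101 probe sets, 64 controls, 932 with several gene symbols and 9160 with none were left out; names came from the platform's annotation, with 34741 of 34945 single-symbol probe sets matched to RefSeq. Each of 18193 genes was read from its brightest probe set, by the mean of all 60 arrays.

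Differences were fitted with limma 3.58.1 in R 4.3.3 (group means of all 20 groups, eBayes with a trend, 40 residual degrees of freedom) and Benjamini-Hochberg adjustment over all genes, with calls at an adjusted p under 0.05. Both ages lie in batch 3. No 2 arrays were alike in more than 0.408% of values. The fit was checked on simulated data.

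Named were the 15 called genes with the largest difference each way (higher mean at least log2 6; no predicted or sex-linked genes), 8 each way for the difference from the proximal change, and within lists up to 8 called and 4 not called members, or any member of lists of up to 12. The members and the 36 lists were chosen with earlier results of these data known, so no list was tested. Alternatives covered normalization, dim genes, probe set choice, array weights, a replicate block and each array left out.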

Additional observations from a re-analysis of the deposited data

Results flagged for a closer look

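The change between E11.5 and E10.5 differed between the distal and the proximal mandible for 2154 genes, by limma on the difference of the changes with all 60 arrays in the fit. Values below are the distal change minus the proximal change on the log2 scale, for each named gene that passed that test. Where a group mean lies under the bound of 4.78, as for Myl2, Myh6, Ankrd1, Tnnt2, Sh3bgr, Lepr, Lin28a and Slc26a7, the value is the fitted difference of measured signals and not an exact size or rank. In heart and other muscle genes the distal change was the higher for Myl2 by 7.09, Myl7 by 5.11, Myh6 by 3.96, Tnnt2 by 3.65, Myl4 by 3.19, Ankrd1 by 3.13, Actc1 by 2.99, Sh3bgr by 2.86 and Acta2 by 2.25. It was the higher also for the receptor gene Lepr by 1.12 and the peptide precursor Tac1 by 0.86. It was the higher for Sall4 (1.4) and Lin28a (1.23), which fell in both pieces.

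The distal change was the lower for the matrix genes Dcn (-2.87) and Kera (-2.25), for the actin-associated gene Synpo2 (-2.79) and for the neurofilament genes Nefm (-2.77) and Nefl (-2.51). It was also lower for Dlx1as (-2.75), Prap1 (-2.58), the anion transporter gene Slc26a7 (-2.19), Rgs5 (-1.67), Hgf (-1.34), Foxa1 (-1.28), Myog (-0.95), Hsd11b2 (-0.9), Krt8 (-0.88) and Krt18 (-0.76). Myog rose in both pieces, by 3.67 distally and 4.62 proximally. Groups of 3 arrays are too small for a test of single outlying arrays.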

How the results depend on the processing

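The main counts were 5391 genes called, 3331 higher and 2060 lower, and 2154 with a distal change unlike the proximal one. With only the 6 arrays compared they were 3156, 2112 and 1044. After centring of each array 3229 genes were lower; with every probe set as a unit there were 8450 (5200 higher, 3250 lower) and 3609 unlike the proximal change. Array quality weights, whose estimation stopped before it converged, gave 5226 unlike the proximal change. With the added setting of E11.5 arrays 2 and 3 both left out, chosen after the data were seen, 3328 were called and 1628 were higher, and the lone E11.5 array was assumed to vary like the other groups. A 2-fold limit left 375 (320 higher, 55 lower) and 216. Leaving out 1 array at a time gave 4611 to 5374 called, 2597 to 3518 higher, 1514 to 2777 lower and 1632 to 2578 unlike the proximal change. The other settings moved these 4 counts by less than 1.5 times. Same-numbered arrays did not deviate together (correlations 0.096, -0.051 and 0.034), so the numbers do not pair them; with a replicate block 5455 (fixed) or 5276 (random) were called and 2251 or 2055 were unlike the proximal change. The settings were also followed in 318 single-gene results, for the genes with the largest differences and every called list member, named here or not. Of these, 42 lost their call without E11.5 replicate 2, and 45 of 302 with only the 6 arrays. One changed sign: Fzd2 was -0.037 (adjusted p = 0.673) by the mean of its probe sets, and the cause was not tested. The number of arrays, and signals near background for 41 of the 320 genes 2-fold higher, limit the precision.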
